A study of Homo sapiens with 4 samples.

Results

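The chromatin loops around EGFR, the gene for the epidermal growth factor receptor on the short arm of chromosome 7, were taken from the Hi-C loop and domain lists of MDA-MB-231 cells. A loop was a member if at least 1 of its 2 anchors lay between 54.8 and 55.5 Mb on chromosome 7 (build GRCh37), a window of 700 kb, and a domain was a member if it overlapped that window. The rule used position only. It found 56 loop calls among the 77275 calls of the 4 loop lists, and 2 domain calls among the 7418 calls of the 4 domain lists. MDA-MB-231 is an established triple-negative breast cancer line with the genotype given as WT, and all libraries came from this line grown in complete RPMI medium. Vehicle cells received DMSO, and the other cells received 75 nM THZ1, a covalent inhibitor of CDK7, both for 48 h. There were 2 libraries per condition, described in the series design as technical replicates, so the spread between them may be technical.

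EGFR is a receptor tyrosine kinase that binds growth factors such as EGF and TGF-alpha and passes the signal to the Ras and PI3K pathways, and it is often highly expressed in triple-negative breast cancer. Hi-C ligates DNA ends that lie close together in the nucleus, so that a loop appears as a pair of anchors with more contacts than the pixels around it. Loops form when cohesin or condensin complexes extrude DNA, and many cohesin loops stop at sites bound by CTCF. Other contacts join a promoter to enhancers or to neighbouring promoters. CDK7 phosphorylates RNA polymerase II at the start of transcription as part of TFIIH.

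The window held SEC61G (a subunit of the channel that brings proteins into the endoplasmic reticulum), EGFR, and LANCL2 (a lanthionine synthetase C-like protein) as protein-coding genes, with the non-coding genes SEC61G-DT, EGFR-AS1 and ELDR between them. In the GENCODE 44 annotation lifted to GRCh37, EGFR ran from 55086710 to 55279321 on the plus strand, a length of 193 kb with 28 exons. Its intron 1, from 55087059 to 55209978, took up 123 kb of that length. SEC61G ended upstream of EGFR at 54827667 and is read away from it, and ELDR, a long non-coding RNA gene downstream of EGFR on the minus strand, ran from 55303658 to 55323328.

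The results turned on the anchor at the EGFR start site, so the 250 bases before that start are shown (GRCh37, chr7:55086460-55086709, plus strand), with the GC boxes, GGGCGG or its reverse complement CCGCCC, in capitals.
EGFR promoter: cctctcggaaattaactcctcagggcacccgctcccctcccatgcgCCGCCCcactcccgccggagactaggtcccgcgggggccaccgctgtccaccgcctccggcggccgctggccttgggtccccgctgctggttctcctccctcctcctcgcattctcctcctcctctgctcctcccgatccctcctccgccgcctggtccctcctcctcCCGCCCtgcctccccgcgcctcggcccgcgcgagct
It held 2 GC boxes, 73.6% G and C, and no match to TATAAA on either strand. Of the 35116 promoters of the RefSeq table (GRCh38.p14), whose bases for EGFR were the same, 42.6% held a GC box, 24.3% held at least 2, 10.7% held TATAAA on either strand, and the median G and C content was 58%.

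The anchors of the window were also searched for the core letters of the CTCF motif, which are CCA, AG and GGC with 2 free bases between neighbouring blocks, on both strands. The matches in the anchors that carried the most calls are given with 10 bases on either side, in GRCh37, read on the strand of the match, with the motif in capitals.
SEC61G-DT intron, chr7:54856874-54856905, minus strand: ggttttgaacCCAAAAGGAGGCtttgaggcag
EGFR start site anchor, chr7:55089799-55089830, minus strand: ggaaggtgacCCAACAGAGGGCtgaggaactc
EGFR intron 1, chr7:55142783-55142814, plus strand: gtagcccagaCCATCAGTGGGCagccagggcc
ELDR start site anchor, chr7:55321243-55321274, plus strand: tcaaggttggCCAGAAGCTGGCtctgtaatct
LANCL2 intron, chr7:55483065-55483096, minus strand: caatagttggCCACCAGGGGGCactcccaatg
Of the 18 distinct anchors of 5 kb in the window, 6 held a match, against 25.5% of the 29472 distinct anchors of 5 kb over the genome. The match in the EGFR start site anchor lay 3.1 kb inside the gene, in intron 1. A match is a description of the letters, and no binding of CTCF was measured here.

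The vehicle lists held 17 and 18 loops with an anchor in the window, and the THZ1 lists held 12 and 9. Both vehicle libraries were above both THZ1 libraries. The means were 17.5 ± 0.707 (SD, n = 2) and 10.5 ± 2.12 (SD, n = 2), a ratio of 1.67, with p = 0.33 in an exact two-sided permutation test, the smallest p that 2 libraries against 2 allow. The whole lists were shorter with THZ1 too, at 17222 and 15066 loops against 20768 and 24219. Set against its own list, the window held 8.19 and 7.43 loops per 10000 in the vehicle libraries and 6.97 and 5.97 per 10000 in the THZ1 libraries. These shares did not overlap either, but their ratio was 1.21 in place of 1.67. Read depth per library is not in these lists, so the length of a list and the depth behind it cannot be told apart here. The contacts summed over all listed loops were 622305 and 762701 in the vehicle and 631600 and 551436 in the THZ1 libraries, which overlapped. These sums run over lists of unequal length and anchor width, so they do not measure depth.

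The lower number of calls lay among finely placed loops. Loops with 5-kb anchors numbered 15 and 15 in the vehicle lists and 8 and 6 in the THZ1 lists. Loops with 25-kb anchors, the coarsest anchors in the lists, numbered 2 and 2 against 4 and 3. Both kinds were free of overlap between conditions, in opposite directions, and the whole lists showed the same order. Over the genome, loops with 5-kb anchors numbered 13028 and 15917 in the vehicle lists and 9563 and 7921 in the THZ1 lists, and loops with 25-kb anchors 2678 and 2854 against 3010 and 2892. The only loop with 10-kb anchors was in vehicle replicate 2.

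Loop size, measured between anchor starts, was not separated between the conditions inside the window. The median size was 110 and 157.5 kb in the vehicle libraries and 155 and 230 kb in the THZ1 libraries, which overlapped (p = 0.667, exact two-sided permutation test, n = 2 per condition). The whole lists had a median of 140 kb in each vehicle library, against 200 kb in each THZ1 library. The window had 7 and 6 loops of 90 kb or less in the vehicle lists, against 5 and 3 in the THZ1 lists. Longer than 90 kb were 10 and 12 loops in the vehicle lists, against 7 and 6. The ratios of the means, vehicle over THZ1, were 1.62 and 1.69. The whole lists also had fewer calls in both classes with THZ1, at 7740 and 8910 against 4513 and 3846 loops of 90 kb or less (ratio 1.99), and 13028 and 15309 against 12709 and 11220 longer loops (ratio 1.18). Whether the window differs from the lists in this was not tested. The largest loop spanned 650 kb in 3 of the lists and 1200 kb in THZ1 replicate 2.

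**Figure D1:**
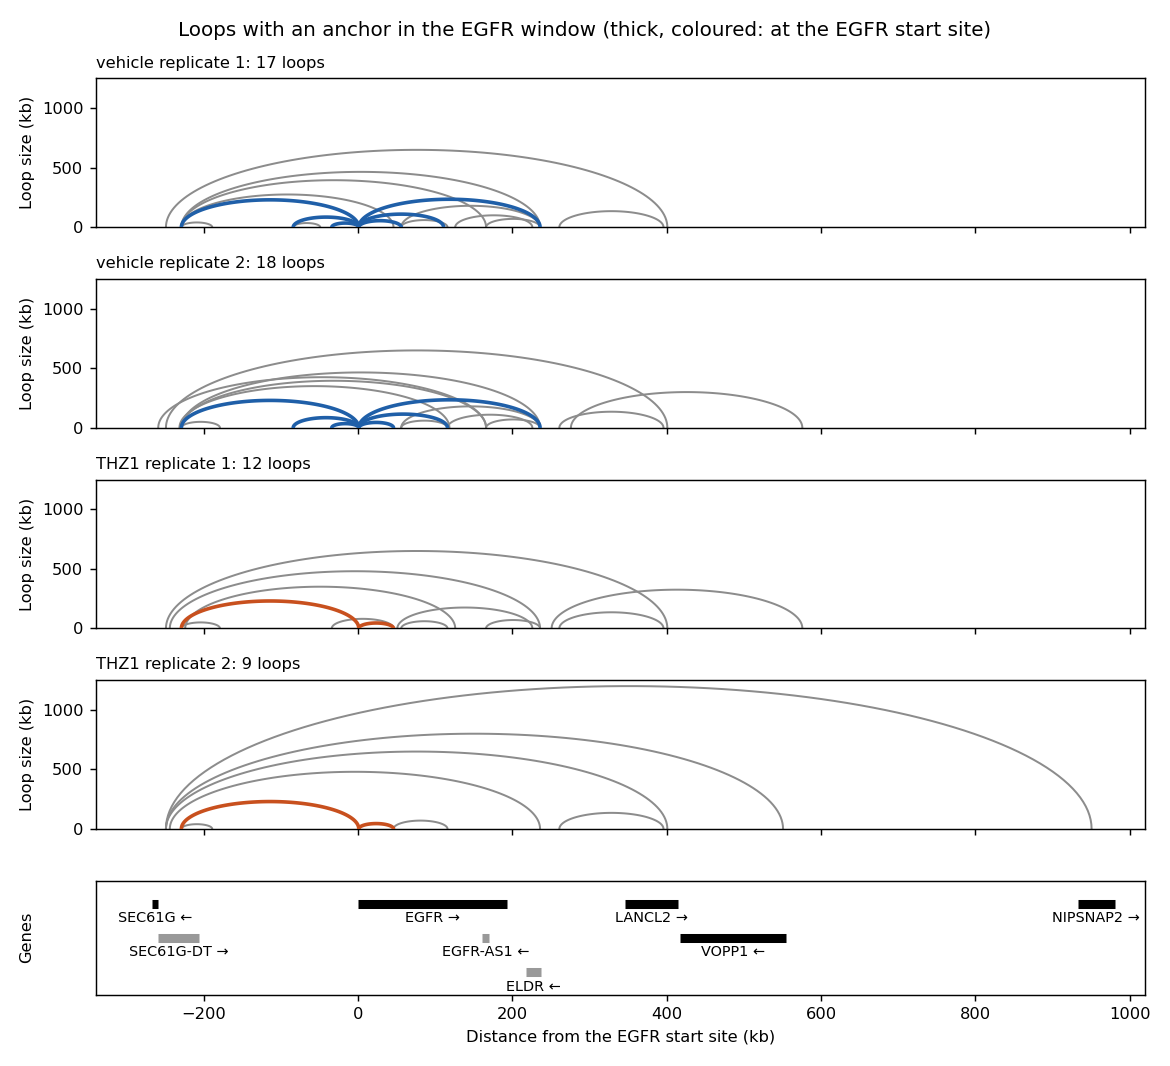
Each arc is a loop with an anchor in the EGFR window, drawn between its anchor midpoints by distance from the EGFR start site (kb), with its height giving the loop size (kb), 1 panel per library and the genes with their direction in the lowest panel. Thick coloured arcs have an anchor on the EGFR start site, 6 in each vehicle library and 2 in each THZ1 library.

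The EGFR start site carried 6 loops in each vehicle library and 2 loops in each THZ1 library. The 2 libraries of each condition gave the same number, and the conditions did not overlap (ratio 3, exact two-sided permutation p = 0.33, n = 2 per condition). Contacts summed over these loops were 202 and 260 with vehicle against 93 and 70 with THZ1. The sums cover called loops only, so they follow the number of calls and do not measure a change in contacts. At each of the 2 start site loops called in all lists, described below, the contacts overlapped between conditions. All of these anchors were the same 5-kb bin, chr7:55085001-55090000. The start site was singled out within the window after its values were seen. Across the 10685 protein-coding start sites that carried a loop in any library, 22.1% had fewer loops in both THZ1 than in both vehicle libraries, so a lower count alone was common. The difference of 4 loops between the means was reached or exceeded at 44 of these sites, EGFR included (0.412%), where the median difference was 0.5. Sites with many vehicle loops have more to lose, and 33 start sites, EGFR included, shared the vehicle mean of 6. Their median THZ1 mean was 3, and 9 of them were at or below the mean of 2 at EGFR. Loops at any protein-coding start site numbered 9081 and 10648 with vehicle against 6592 and 5826 with THZ1, a ratio of 1.59.

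To follow single loops across the lists, calls were treated as the same loop where both anchor midpoints lay within 20 kb. The 56 calls then made 24 distinct loops. Of these, 7 were in all 4 lists (26.1% of the 33552 distinct loops of the genome were), 2 were in 3 lists, 6 were in both vehicle and no THZ1 lists, and none was in both THZ1 and no vehicle lists. The 6 vehicle-only loops were 25% of the 24, against 9.67% over the genome. This count rests on the matching distance. Within 10 kb it was 7 of 25 loops (8.99% over the genome), and within 50 kb, where neighbouring loops of the window merge, it was 0 of 13 (8.23% over the genome). The corresponding share for loops in both THZ1 and no vehicle lists was 2.24% over the genome, so 0 of 24 is near it. The remaining loops were 1 found in 1 library of each condition, 4 found in 1 vehicle library and 4 found in 1 THZ1 library. Loops with 25-kb anchors in adjacent positions do not match directly within 20 kb. A loop of vehicle replicate 2 and a loop of THZ1 replicate 1, both to chr7:55650001-55675000, stayed apart in this way. Over the genome, 25-kb anchors made up 12.9% and 11.8% of the vehicle lists, against 17.5% and 19.2% of the THZ1 lists. The effect on the counts was not tested.

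Of the 6 distinct loops with an anchor on the EGFR start site, 2 were in all 4 lists. The first ran 230 kb upstream to chr7:54855001-54860000, an intron of SEC61G-DT, and had the same anchors in every list. It was seen in 29, 35, 40 and 27 contacts in vehicle replicates 1 and 2 and THZ1 replicates 1 and 2, in this order, which is kept below. The contacts expected from the ring of pixels around it (the donut) were 4.17, 5.97, 6.98 and 6.36. The observed contacts thus overlapped between conditions, while observed over expected was 6.96 and 5.86 with vehicle against 5.73 and 4.24 with THZ1, without overlap.

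The other start site loop kept in all lists ran into intron 1 of EGFR, to chr7:55130001-55135000, or to chr7:55140001-55145000 in vehicle replicate 1. Its contacts were 41, 59, 53 and 43, and overlapped between conditions. Its observed over expected was 4.22, 4.71, 3.10 and 2.89, and both THZ1 values were below both vehicle values.

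The other 4 start site loops were in both vehicle lists and in neither THZ1 list. A loop to chr7:55000001-55005000, 85 kb upstream, had 33 and 41 contacts in vehicle replicates 1 and 2, at 4.30 and 4.40 times the expected number. A loop of 35 kb to chr7:55050001-55055000 had 38 and 61 contacts, at 2.44 and 3.25 times the expected number. Both of these upstream partners lay outside any annotated gene. A loop into intron 1, to chr7:55195001-55200000 in replicate 1 and chr7:55200001-55205000 in replicate 2, had 28 and 40 contacts, at 5.46 and 5.26 times the expected number. The fourth loop joined the EGFR start site with the ELDR start site at chr7:55320001-55325000, a distance of 235 kb that spans the whole of EGFR, with 33 and 24 contacts at 10.6 and 5.51 times the expected number.

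The gene body of EGFR carried loop anchors in every library. Loops with an anchor over it numbered 12 and 13 with vehicle against 7 and 3 with THZ1, and the conditions did not overlap. Over the 14386 protein-coding gene bodies that carried an anchor in any library, 24.3% had fewer in both THZ1 than in both vehicle libraries and 3.47% had more. Loops with both anchors over EGFR numbered 3 in each vehicle and 2 in each THZ1 library, a difference of 1 loop that was not set against other genes.

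Within the gene body, a loop between chr7:55140001-55145000 and chr7:55200001-55205000, both in intron 1, was in all 4 lists, with the first anchor at chr7:55130001-55135000 in THZ1 replicate 2. Its contacts were 55, 53, 44 and 42, and its observed over expected was 7.24, 7.70, 4.46 and 4.25. Both measures were lower in both THZ1 libraries than in both vehicle libraries.

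Both loops found in 3 lists ended at the ELDR start site and were missing from THZ1 replicate 2. The loop from chr7:55140001-55145000 in intron 1 had 21 and 18 contacts in the vehicle lists, at 7.32 and 6.70 times the expected number. In THZ1 replicate 1 it was called only with 25-kb anchors, where its 110 contacts, at 2.16 times the expected number, cover a larger area and are not comparable. The loop from chr7:55250001-55255000, an intron of EGFR that also holds an exon of EGFR-AS1, had 17, 38 and 25 contacts at 3.91, 7.05 and 3.71 times the expected number in vehicle replicates 1 and 2 and THZ1 replicate 1.

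The last 2 loops of the vehicle lists alone also touched the gene body. The first joined the same EGFR-AS1 bin to the SEC61G-DT intron at chr7:54855001-54860000, over 395 kb, with 21 and 17 contacts at 8.73 and 6.28 times the expected number. The second joined the end of intron 1, and in vehicle replicate 1 also exons 2 to 10, to the ELDR gene. It was called with 25-kb anchors in vehicle replicate 1, at chr7:55200001-55225000 and chr7:55300001-55325000, with 84 contacts at 2.29 times the expected number. In vehicle replicate 2 it was called at chr7:55200001-55205000 and chr7:55310001-55315000, with 19 contacts at 6.67 times the expected number.

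The vehicle-only loops were picked as calls of both vehicle lists, so low false discovery rates there follow in part from that choice. Their largest rate against the donut, as given by the caller, was 2.29e-05. The largest over the window was 0.00420, at a loop called in vehicle replicate 1 alone, and over all lists 0.0959. The vehicle-only loops have no rate in the THZ1 lists, where they were not called. Their sizes ran from 35 to 395 kb. Their median observed over expected was 4.88 and 5.39 in vehicle replicates 1 and 2, and that of the 7 kept loops in the same libraries was 6.96 and 6.46. The values overlapped, and the loops to the ELDR start site and from SEC61G-DT to the EGFR-AS1 bin, at 10.6 and 8.73 in vehicle replicate 1, were above 5 of the 7 kept loops there. In vehicle replicate 2 the same loops, at 5.51 and 6.28, were above 2 and 3 of the 7. Other vehicle-only loops were weaker. The 35-kb loop of the EGFR start site, at 2.44 and 3.25, was below all 7 kept loops in both vehicle replicates. So was the 85-kb start site loop in replicate 2, at 4.40. The loop from the end of intron 1 to ELDR had 2.29 in replicate 1, with 25-kb anchors that are not comparable with 5-kb anchors. In replicate 2, with 5-kb anchors, it had 6.67, above the median of the 7 kept loops there. The kept loops had medians of 4.56 and 4.25 in the THZ1 libraries.

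The 4 named loops that flank EGFR without ending on its gene body were each in all 4 lists. The outermost, between the 25-kb anchors that start at 54825001 (SEC61G and SEC61G-DT start sites) and 55475001 (an exon of LANCL2), spanned 650 kb and had 47, 48, 60 and 63 contacts. Here both THZ1 libraries had more contacts than both vehicle libraries. The expected contacts were 10.4, 10.8, 16.7 and 14.8, so observed over expected was 4.52, 4.46, 3.58 and 4.25, lower in both THZ1 libraries.

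A loop from SEC61G-DT to the ELDR start site enclosed EGFR, with 72, 72, 75 and 63 contacts. Its observed over expected of 17.0, 14.2, 16.8 and 16.5 overlapped between conditions. Its ELDR anchor was the same bin in all 4 lists, and its upstream anchor was chr7:54855001-54860000 in both vehicle lists and chr7:54840001-54845000, 15 kb farther out, in both THZ1 lists. The loop was therefore 465 kb long with vehicle against 480 kb long with THZ1.

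A short loop from the same SEC61G-DT bin to unannotated sequence, at chr7:54895001-54900000 in vehicle replicate 1 and THZ1 replicate 2 and at chr7:54905001-54910000 in the other two libraries, had 21, 29, 31 and 26 contacts. Its observed over expected of 3.88, 6.46, 4.56 and 2.80 overlapped between conditions.

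Downstream of EGFR, a loop of 135 kb joined chr7:55345001-55350000, outside any annotated gene, with chr7:55480001-55485000 in an intron of LANCL2. It had 27, 29, 25 and 27 contacts, nearly the same number in every library. The expected contacts were 1.20 and 1.32 with vehicle against 2.24 and 2.39 with THZ1, so that observed over expected went from 22.5 and 21.9 to 11.1 and 11.3. The observed contacts overlapped between conditions and the expected contacts did not. Neither is scaled for the depth of its library, so the part of each in the lower ratio was not tested.

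**Figure D2:**
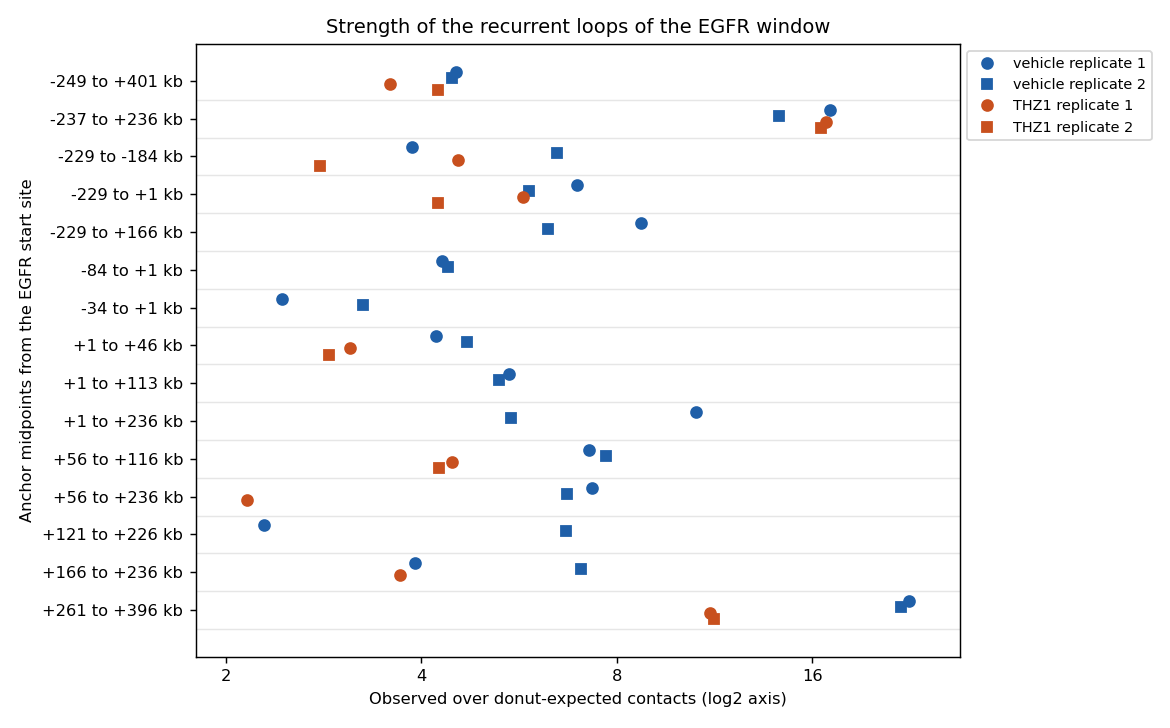
Observed over donut-expected contacts (log2 axis) of the 15 loops of the EGFR window found in at least 3 lists or in both libraries of a condition, 1 row per loop named by its anchor midpoints in kb from the EGFR start site, 1 point per list that calls it. The 7 rows with 4 points are the loops of all lists, and in 5 of them both THZ1 points lie left of both vehicle points (49.2% of the loops in all lists over the genome); the 6 rows with blue points alone are the vehicle-only loops.

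Loops with identical anchors in all 4 lists can be compared at the same pixel. There were 3 in the window and 2624 over the genome, of which 2619 had expected contacts above 0 in every library and were tested with edgeR's quasi-likelihood test on the observed contacts, taken relative to the donut expectation. With Benjamini-Hochberg adjustment over all of these, 27.5% were lower with THZ1 and 0.0382% were higher at an adjusted p of at most 0.05. The number of calls, 720 lower and 1 higher, changed with the fit. edgeR called 227 without vehicle replicate 1 and 0 without any 1 of the others (699 to 824 at an unadjusted p under 0.05), and DESeq2 called 0 (359 at an unadjusted p under 0.05), while the median change over all loops stayed between -0.44 and -0.39 in these fits. With TMM scaling in place of the expected contacts, 109 were lower and 67 higher. In the window, 1 of 3 was lower and 0 were higher. The fit takes the expected contacts as known, so its SE and p values leave out the error of the expected contacts. Relative to these, the LANCL2 loop fell by 0.98 on the log2 scale (SE 0.23, edgeR adjusted p = 0.00714). It ranked behind 82 of the 2619 loops, which had a lower value. Leaving out any 1 of the 4 libraries left its change at -1.0 to -0.96 and took its edgeR adjusted p to between 0.0557 and 0.101; in these fits 1 condition has a single library, which is assumed to vary like the other condition. DESeq2 gave -0.99 with an adjusted p of 0.315. With TMM scaling in place of the expected contacts its change was -0.09 (edgeR adjusted p = 0.883). The loop from SEC61G-DT to the EGFR start site changed by -0.33 (SE 0.23, edgeR adjusted p = 0.308). The outermost loop changed by -0.20 (SE 0.19, edgeR adjusted p = 0.427), and the test did not separate either from no change. The median of the 3 was -0.33, beside -0.41 over all 2619 loops. Of the 7 loops matched within 20 kb in all lists, 6 had a lower mean log2 observed over expected with THZ1, by a median of -0.49 with a range from -0.99 to 0.098. Over the genome the same held for 78.8% of the 8770 such loops with a ratio in every library, with a median difference of -0.35. In 5 of the 7 both THZ1 values were below both vehicle values, as in 49.2% of the loops over the genome, so lower ratios were common outside the window too.

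**Figure D3:**
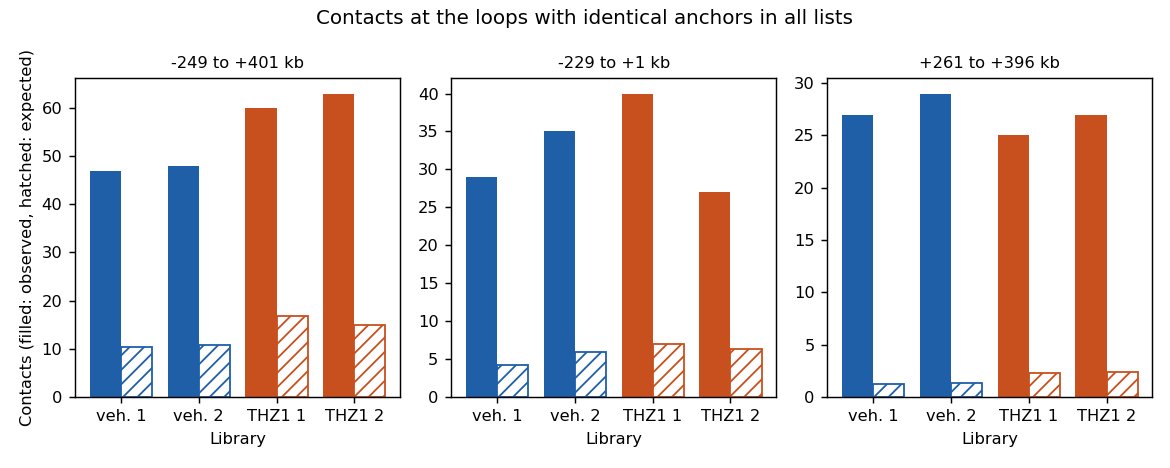
Observed (filled bars) and donut-expected (hatched bars) contacts in each library for the 3 loops with identical anchors in all lists, named by anchor midpoints in kb from the EGFR start site. At the loop from +261 to +396 kb the observed contacts stay between 25 and 29 while the expected contacts are 1.20 and 1.32 with vehicle against 2.24 and 2.39 with THZ1.

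Counted by anchor position, the 5-kb anchors of the window fell on 18 bins, and coarser anchors were counted at each of these bins they covered. A loop of vehicle replicate 2 with 25-kb anchors, at chr7:55350001-55375000 and chr7:55650001-55675000, covered none of them. Of the 18 bins, 5 had fewer loops in both THZ1 than in both vehicle libraries, where 19.5% of the 29472 such bins over the genome did. In the other direction, 2 had more, where 4.21% did. The SEC61G-DT bin at chr7:54855001-54860000 carried 5, 5, 3 and 2 loops, and the ELDR start site carried 5, 4, 3 and 1. Both were lower in both THZ1 libraries, as was the EGFR start site bin with 6, 6, 2 and 2. The next anchor bin toward SEC61G, chr7:54840001-54845000, went the other way with 1, 1, 2 and 4 loops, counting 25-kb anchors that cover it. With 5-kb anchors alone it carried 0, 0, 1 and 1. These were the loop to ELDR that the vehicle lists place on the SEC61G-DT bin. In intron 1 of EGFR, chr7:55130001-55135000 carried 1, 1, 3 and 2 loops, and chr7:55140001-55145000 carried 3, 2, 2 and 0. Some loops matched across the lists were placed on the first of these bins in some lists and on the second in others. A higher count at a bin is thus not by itself an added loop. The LANCL2 bin at chr7:55480001-55485000 carried 2 loops in every library. The bin at chr7:55250001-55255000, over EGFR-AS1, carried 2, 3, 1 and 0.

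**Figure D4:**
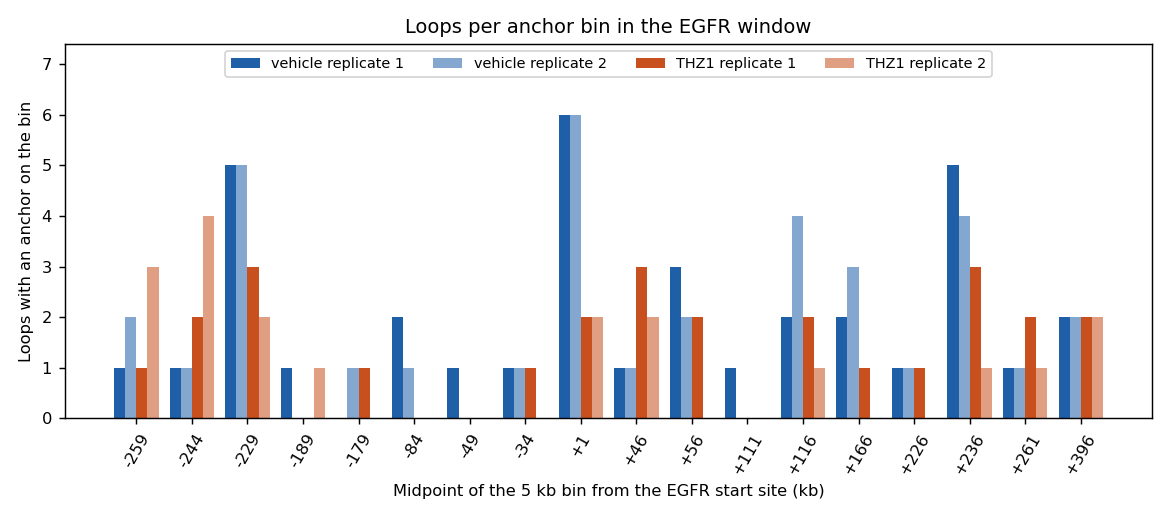
Number of loops with an anchor on each 5-kb bin of the window that any list uses as a fine anchor, placed by the distance of its midpoint from the EGFR start site (kb), 1 bar per library; a 25-kb anchor counts at each bin it covers. The bin at +1 kb, the EGFR start site, has 6 loops in each vehicle library and 2 in each THZ1 library, and the bin at +46 kb has 1 in each vehicle library and 3 and 2 in the THZ1 libraries.

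The 9 distinct loops outside the named ones were each found in 1 list, except for 1 found in vehicle replicate 2 and THZ1 replicate 1 between SEC61G-DT and EGFR, over 350 kb. The 4 found in 1 vehicle list ran from 35 to 425 kb. Of the 4 found in 1 THZ1 list, 3 reached out of the window. In THZ1 replicate 2, the 25-kb anchor at SEC61G was joined to the VOPP1 start site over 800 kb with 35 contacts and to NIPSNAP2, a gene for a mitochondrial protein, over 1200 kb with 23 contacts. In THZ1 replicate 1, a loop of 325 kb reached the bin at chr7:55650001-55675000 with 46 contacts. A loop of vehicle replicate 2 reached the same bin over 300 kb, so reaching out of the window was not limited to THZ1. Loops with both anchors inside the window numbered 17, 17, 11 and 7.

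Domains, the square blocks of raised contact that the Arrowhead caller reports on a 10-kb grid, were few here. None was listed in the window in either vehicle library, and each THZ1 library listed 1. They were chr7:55330001-55470000 in replicate 1 (140 kb, corner score 0.948) and chr7:55330001-55490000 in replicate 2 (160 kb, corner score 0.999). Both held the LANCL2 start site and neither reached the EGFR gene body, over which no library listed a domain. The same 10-kb bin began both, and the LANCL2 loop lies between 55345001 and 55485000. Over the genome, 17.9% of 3968 distinct domains were in both THZ1 and no vehicle lists, and the THZ1 lists held more domains throughout, 2477 and 2345 against 1198 and 1398. Both corner scores were below the median of their own lists, 1.12 and 1.11. The test of 0 and 0 against 1 and 1 could not go below an exact permutation p of 0.33 (two-sided, n = 2 per condition).

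Loops with an anchor over the gene body were then counted for 18 genes of the EGFR receptor family, its ligands, adaptors and feedback regulators. A loop was found at 17 of the 18, and at 6 of them both THZ1 libraries had fewer than both vehicle libraries, where the share over all gene bodies was 24.3%. No gene of the list had more in both THZ1 libraries, where the share over all gene bodies was 3.47%, and 11 overlapped between conditions. Beside EGFR with 12, 13, 7 and 3, the lower genes were ERBB3, a partner receptor with 3, 2, 0 and 0 loops, and TGFA, a ligand of EGFR, with 3, 5, 1 and 2. CBL, the ubiquitin ligase that marks activated EGFR for breakdown, had 3, 3, 1 and 1. LRIG1, another negative regulator of the receptors, had 2, 2, 1 and 1, and GAB1, a docking protein, had 3, 3, 2 and 1. EGFR carried more loops than any other gene of the list in each vehicle library, and its gene body is long, which these counts do not correct for.

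The genes that overlapped between conditions included ERBB2 with 1, 1, 0 and 1 loops and ERBB4 with 1, 0, 0 and 1. Among the ligands, EGF had 4, 5, 3 and 5, EREG had 3, 3, 3 and 2, and EPGN had 3 in every library. BTC had a loop in vehicle replicate 1 alone, HBEGF had 1, 1, 1 and 0, and AREG had none in any list. Of the adaptors, GRB2 had 4, 7, 4 and 2, SHC1 had 2, 3, 2 and 2, and SOS1 had 1 in each library. ERRFI1, a feedback inhibitor of EGFR, had 5, 4, 6 and 5.

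**Figure D5:**
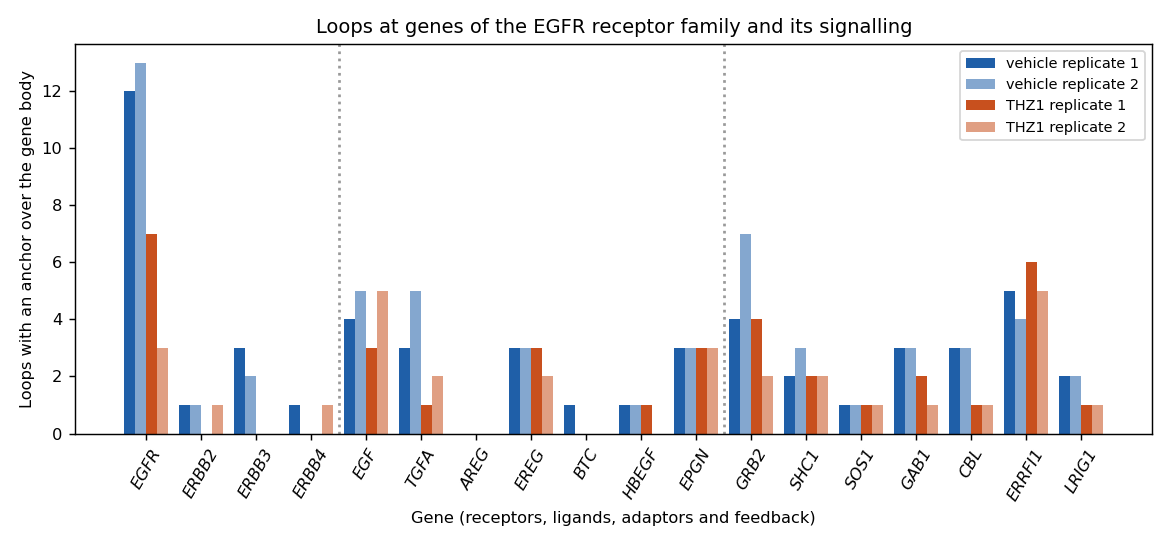
Number of loops with an anchor over the gene body (vertical axis) for each of the 18 genes, 1 bar per library, with dotted lines between receptors, ligands, and adaptors and feedback regulators. EGFR has 12 and 13 loops in the vehicle and 7 and 3 in the THZ1 libraries, and ERRFI1 has 5 and 4 against 6 and 5.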

How the data were processed

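Samples of MDA-MB-231 cells (2 vehicle, 2 THZ1) were crosslinked by the authors and sent to Arima Genomics, where chromatin was cut with a restriction enzyme cocktail and made into Hi-C libraries. Reads were processed with Juicer 1.6 on hg19, per the submitters' processing notes; the file headers name juicer_tools 1.19.02. The deposited loop lists give, for each loop, raw observed contact counts at its pixel, the expected signal from 4 surrounding areas as computed by the authors, and a q-value (false discovery rate) for each area. The deposited domain lists give a corner score for each domain. The caller's settings are not given in the sources used here, and the contact maps were not analysed here, so a loop absent from a list has no value, and absence means that it was not called. The study's methods state read depth as a range over the libraries and not for each one. The contacts at called loops depend on the calls, so the depth of a library was not measured here. Deposited tables of loops unique to a condition are the authors' own comparison and were not used.

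The window members and gene lists were chosen with earlier results of these data known. Calls were matched by single linkage (scipy 1.17.1) when both anchor midpoints lay within 20 kb. Every matched loop in at least 3 lists or in both libraries of a condition was named. Library values were compared with an exact two-sided permutation test (Python 3.11.15). Loop strength was fitted in edgeR 4.0.16 (glmQLFit, glmQLFTest, R 4.3.3, Benjamini-Hochberg, adjusted p of at most 0.05) from observed contact counts, using log donut expectation as an offset; DESeq2 1.42.0 was an alternative. The fit was tested on simulated data. Genes came from GENCODE 44 lifted to GRCh37, and none of 61322 distinct anchors lay beyond a chromosome end or wholly in unsequenced bases of that build. Alternatives were another window, narrower anchors, stricter thresholds, other matching distances, other expectations and leaving out each library.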

Additional observations from a re-analysis of the deposited data

How the results depend on the processing

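Of 81 alternatives over all results, 61 counted as unchanged. For most results this meant that they kept their direction and call or moved by less than the spread between replicates. Numbers of vehicle-only loops and of loops of unequal strength counted as unchanged within a fixed ratio to the main number. Another 11 moved, 6 lost a call and 3 changed sign. The 61 include alternatives that could not change a result, such as those at the EGFR start site and the filter on 10 contacts. The log2 ratio of window loops, THZ1 over vehicle, was -0.74, became -1.32 for the EGFR gene body with 10 kb on either side and -1.15 with anchors of 10 kb or less, and ran from -0.96 to -0.54 when each library was left out in turn. The log2 ratio of the share of all loops was -0.27, became -0.88 for the gene body, and ran from -0.39 to -0.16 without each library. The log2 ratio of median sizes was 0.53, became 0.14 for loops with both anchors in the window, and ran from 0.21 to 0.81 without each library. The ratio at the EGFR start site, a result added after the values were seen, was -1.58 and could not move, since the counts were equal within each condition and every call there passed the stricter threshold. The difference of 1 domain became 0 once domains below the median corner score were left out. The 6 vehicle-only loops became 7 when matched within 10 kb, 6 to 8 without each library, and 0 within 50 kb, where the 24 distinct loops merged into 13.

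Loops of unequal strength over the genome numbered 721 in edgeR, of which 720 were lower, and 604 with the bottom-left expectation. With TMM scaling in place of the expected contacts they numbered 176, 109 lower and 67 higher. DESeq2 called 0 (359 at an unadjusted p under 0.05, against 1091 in edgeR). Without each library edgeR called 0 to 227: 227 without vehicle replicate 1, and 0 without vehicle replicate 2, THZ1 replicate 1 or THZ1 replicate 2, with 699, 824 and 746 at an unadjusted p under 0.05; each of these fits has 1 library in a condition, assumed to vary like the other condition. With the replicate block edgeR called 770, and the block changed no call in the window. The deviations of same-numbered libraries correlated at 0.017. They also hold counting noise, so this cannot decide whether the libraries were paired, and the sample titles do not say. The median change of the 3 window loops was -0.33, ran from -0.57 to -0.22 without each library, and changed sign to 0.080 under TMM, as did the loop from SEC61G-DT to the EGFR start site (0.080) and the outermost loop (0.39). TMM scales to the contacts at loops alone. The filter on 10 contacts removed no loop. A loop missing from a list was not called there, and the part of depth in this was not tested.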
